A study of Homo sapiens with 3 samples.

Results

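The transcriptome of HGC-27 cells that received an siRNA against IRF3 was compared with that of cells that received a control siRNA. HGC-27 is a long-established line of human gastric cancer cells with undifferentiated histology. RNA sequencing libraries were analysed, from cells given control siRNA, IRF3 siRNA or YAP siRNA, each after 48 h and at passage 6. Sequences of the siRNAs were not given in the sources used here. Each condition was a single library, so the differences carry no check from replicates and no p-value is given. All genes with a mean of at least 1 FPKM (fragments per kilobase of gene, scaled to the total of the library) over the 3 libraries were described, which gave 11103 of 50868 genes. The YAP siRNA library was used only to separate values particular to the IRF3 siRNA library from those that also stood in the other knockdown, and both knockdowns share the same control library.

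IRF3 is a transcription factor of the antiviral response. It rests in the cytoplasm until sensors of foreign nucleic acid activate the kinases TBK1 and IKBKE, which phosphorylate it, and it then enters the nucleus and switches on type I interferon and a first set of antiviral genes. Secreted interferon acts back on the cell through its receptors, JAK kinases and STAT factors, which bind the interferon-stimulated response element in the promoters of interferon-stimulated genes.

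The control library held 13949401 counts over all genes, the library from IRF3 siRNA 14941556 and that from YAP siRNA 14385959. Of 31 gastric lineage markers 5 passed the filter and 12 had no count in any library, and of 30 epithelial markers 6 passed. The epithelial markers KRT8 (0.403, 0.310 and 0.269 FPKM in the control, IRF3 siRNA and YAP siRNA libraries), EPCAM (0.0837, 0.109 and 0.162) and CDH1 (0.0297, 0.00925 and 0.0192) were near 0 in all 3 libraries, although the label names gastric cancer cells. Mesenchymal transcripts were abundant, with VIM at 511, 451 and 469 FPKM in the same order. Fibroblast markers (12 of 16 kept) had a summed level of 1066, 968 and 996 FPKM. Leukocyte markers (3 of 25 kept) summed to 8.31, 8.48 and 8.87 FPKM, and PTPRC, which encodes the leukocyte protein CD45, had 1, 3 and 3 counts.

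The targeted gene was read first. IRF3 (ENSG00000126456, chromosome 19, 49659569 to 49665875, minus strand, hg38) had 3.55 FPKM from 681 counts in the control, 2.90 from 597 under its own siRNA, and 3.86 from 764 under YAP siRNA. Values in a series are given in this order from here on: control, IRF3 siRNA, YAP siRNA. The IRF3 siRNA library was the lowest of the 3. Its log2 ratio to control on the scale of FPKM plus 1 was -0.22, and its depth-scaled count ratio was 0.818 with a 95% counting interval of 0.732 to 0.915. Against the YAP siRNA library the count ratio was 0.752 (0.675 to 0.838). These intervals are exact binomial (Clopper-Pearson) intervals and cover counting error only, since PCR copies are not independent molecules. In a bulk library, fewer cells that carry a transcript and less of it per cell cannot be told apart. BCL2L12, a BCL2-family gene on the plus strand (49665142 to 49673916), overlaps the 5′ end of IRF3. It stood at 10.2, 12.1 and 12 FPKM, and was alike in both knockdowns. With the counts of both genes summed, the log2 ratio was -0.02. A strand setting for the counts was not given in the sources used here, so reads of the overlap cannot be assigned, and the library labelled IRF3 siRNA is checked only weakly by its target. YAP1, the target of the other siRNA, had 5.89, 3.58 and 2.23 FPKM, a log2 ratio of -0.59 with IRF3 siRNA.

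Genes upstream of IRF3, interferon regulatory factors and genes of interferon receptor signalling were read next. Past 2-fold, the background among all genes kept was 0.387% higher and 0.612% lower. At those shares few or no calls are to be found in lists of this size. Of 27 nucleic acid sensors, adaptors, kinases and coactivators 15 were kept, none passed 2-fold in either direction, and their median log2 ratio to control was -0.04, beside -0.03 over all genes kept. EP300 and CREBBP, the acetyltransferases that act with IRF3 in the nucleus, had -0.64 (5.65, 3.26 and 3.14 FPKM) and -0.50 (4.15, 2.65 and 2.56 FPKM). Both were as low with YAP siRNA as with IRF3 siRNA. IKBKE, 1 of the kinases, had 0.29. Interferon regulatory factors, their partners and neighbouring genes (7 of 13 kept) likewise had none past 2-fold. This list includes BCL2L12, and its median of -0.22 was equal to the ratio of IRF3 itself. IRF2, a repressor of interferon-induced transcription, had -0.36. Interferon receptor and JAK-STAT genes (18 of 26 kept) had no call and a median of -0.15. Within that list the kinase JAK1 stood at 8.75, 4.04 and 4.86 FPKM (log2 ratio -0.95). PTPN11, a tyrosine phosphatase, had -0.83, but -0.07 with overlapping genes summed. The receptor chain IFNAR1 had 2.65, 1.27 and 1.82 FPKM (-0.68). JAK1 and IFNAR1 were lowest with IRF3 siRNA, with YAP siRNA nearer to it than to control.

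Genes downstream of IRF3 were then described. Of 18 direct IRF3 target genes 6 were kept, and none passed 2-fold. ISG15, a ubiquitin-like modifier, stood at 8.42, 8.50 and 8.26 FPKM from 243, 263 and 246 counts. IFIT1, which binds foreign RNA caps, stood at 1.12, 1.11 and 1.10 FPKM from 99, 105 and 100 counts. For both genes the 3 libraries lay within counting error of each other, with count ratios to control of 1.01 (0.845 to 1.21) for ISG15 and 0.990 (0.745 to 1.32) for IFIT1. The stress factor ATF3 had 6.52, 6.44 and 5.78 FPKM, and the apoptosis genes PMAIP1 and BBC3 had log2 ratios of 0.04 and -0.06. ZC3HAV1, an antiviral RNA-binding protein, had the largest ratio of the 6, at 2.16, 1.30 and 1.42 FPKM (-0.45, count ratio 0.605, interval 0.511 to 0.714), and was alike in both knockdowns. Among the 12 targets under the filter, IFNB1, IFNL1, IFNL2 and IFNL3, the interferons that IRF3 switches on, had no count in any library, which allows up to 3 counts in each. The chemokine gene CXCL10 had 0, 3 and 0 counts. Of the 5 low targets with at least 10 counts, 2 had an interval wholly below 1, IFIT3 (given below) and TNFAIP3, an NF-kB inhibitor, with 61, 32 and 27 counts (0.490, 0.309 to 0.763). These 4 interferon genes were thus not detectable at this depth in the control either.

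Interferon-stimulated genes (26 of 55 kept) had no member past 2-fold on the FPKM scale and a median of 0.00. SHISA5 stood at 3.51, 7.73 and 8.16 FPKM (log2 ratio 0.95, count ratio 2.20, interval 2.03 to 2.38), and it was the single member whose counting interval lay wholly past 2-fold. UBE2L6, the enzyme that transfers ISG15 to its substrates, stood at 12.5, 23.8 and 23 FPKM (0.88). IFITM1, a membrane protein that blocks virus entry, stood at 14.9, 29.8 and 28.9 FPKM (0.95, or 0.53 with overlapping genes summed). In each of these 3 genes the IRF3 and YAP siRNA libraries lay side by side and the control was low. EIF2AK2, the RNA-activated kinase PKR, stood at 3.66, 1.91 and 2.36 FPKM (-0.68) and ADAR, an RNA editor, at 19.8, 13.3 and 13.6 FPKM (-0.54), again lower in both knockdowns. MHC class I and peptide-loading genes (20 of 21 kept) had no call and a median of 0.07. Their light chain B2M stood at 28.4, 53.1 and 55.6 FPKM (0.88) and the chaperone CANX at 68.2, 43.1 and 36.8 FPKM (-0.65).

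Below the filter, 29 further interferon-stimulated genes had mean levels of at most 0.977 FPKM. Of the 22 with at least 10 counts over the control and IRF3 siRNA libraries, 12 had a count ratio interval wholly below 1 and 0 had one above, beside 27.1% below and 3.73% above among all 6508 such low genes. Of these 12 MX1, an antiviral GTPase, had the lowest ratio, with 30, 7 and 17 counts (count ratio 0.218, interval 0.0808 to 0.506). IFIT3 had 34, 18 and 25 counts (0.494, 0.263 to 0.900) and PARP14 had 53, 23 and 19 (0.405, 0.237 to 0.673). PARP14 was as low with YAP siRNA. None of the 12 also had an interval wholly below 1 against the YAP siRNA library, where the ratio of MX1 was 0.396 (0.139 to 1.01).

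Promoter sequence was set beside these values, since IRF3 and the STAT complexes bind a known element. The core searched was GAAANNGAAA on both strands, in the 250 bases before the RefSeq start (GRCh38.p14) nearest to each gene's deposited start, with overlapping matches allowed. A window was found for 7989 of 11103 genes (72.0%), of which 171 (2.14%) held the core. Among the kept interferon-stimulated genes 10 of 22 windows held it (45.5%), and among MHC class I and peptide-loading genes 7 of 16 (43.8%). The core was in 0 of 21 windows of genes higher with IRF3 siRNA and 0 of 35 windows of genes lower, where the 3 matches that a count of 0 allows would be 14.3% and 8.57%. The 171 genes with the core had a median log2 ratio of -0.06 and the 10 interferon-stimulated genes among them -0.07. The windows of ISG15 and IFIT1 are shown because their capitals mark the core beside a level value. Those of TGOLN2, SURF4 and LIPA, decreases described below, have no capitals because these letters do not occur in them on either strand. That says nothing about binding of any factor.
ISG15 (chr1:1013247-1013496, plus strand): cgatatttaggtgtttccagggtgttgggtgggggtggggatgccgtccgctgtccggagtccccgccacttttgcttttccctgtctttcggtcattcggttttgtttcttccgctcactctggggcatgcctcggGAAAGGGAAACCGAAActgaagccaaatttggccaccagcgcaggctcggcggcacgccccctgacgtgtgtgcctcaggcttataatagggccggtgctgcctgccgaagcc
IFIT1 (chr10:89392373-89392622, plus strand): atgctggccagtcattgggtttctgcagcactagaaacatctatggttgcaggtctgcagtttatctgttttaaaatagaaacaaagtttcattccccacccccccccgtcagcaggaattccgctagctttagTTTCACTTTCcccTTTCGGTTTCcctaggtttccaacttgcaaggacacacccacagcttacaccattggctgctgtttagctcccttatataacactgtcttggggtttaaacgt
TGOLN2 (chr2:85327990-85328239, minus strand): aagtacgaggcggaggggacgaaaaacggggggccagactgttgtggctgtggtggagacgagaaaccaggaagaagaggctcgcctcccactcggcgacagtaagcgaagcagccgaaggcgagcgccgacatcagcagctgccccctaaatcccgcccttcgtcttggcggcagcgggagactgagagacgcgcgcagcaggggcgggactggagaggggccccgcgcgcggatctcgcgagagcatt
SURF4 (chr9:133376061-133376310, minus strand): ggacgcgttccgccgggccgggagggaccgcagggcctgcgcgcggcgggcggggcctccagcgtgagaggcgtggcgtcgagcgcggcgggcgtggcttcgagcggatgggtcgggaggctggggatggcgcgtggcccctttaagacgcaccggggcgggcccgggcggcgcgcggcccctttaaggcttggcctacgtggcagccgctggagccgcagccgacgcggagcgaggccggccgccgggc
LIPA (chr10:89414680-89414929, minus strand): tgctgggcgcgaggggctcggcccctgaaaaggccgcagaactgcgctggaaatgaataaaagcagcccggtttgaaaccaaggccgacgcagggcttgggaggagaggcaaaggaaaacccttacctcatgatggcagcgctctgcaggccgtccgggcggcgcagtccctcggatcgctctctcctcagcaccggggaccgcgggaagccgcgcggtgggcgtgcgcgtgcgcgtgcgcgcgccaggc
In ISG15 a pair of matches overlap, and in IFIT1 a pair stand on the opposite strand. The deposited LIPA entry spans 89213569 to 89414557 and encloses the IFIT1 window. Its own window is that of the RefSeq start nearest the outer end of this span, and other starts of LIPA were not searched. At that outer end LIPA lies head to head with IFIT5 (89414586 to 89421001), an interferon-stimulated gene whose own window holds the core. IFIT5 stood at 1.87, 1.33 and 1.11 FPKM (log2 ratio -0.30).

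Across all genes kept, the IRF3 siRNA library lay close to control. The median log2 ratio was -0.03, the quartiles were -0.25 and 0.16, and 9867 genes (88.9%) lay within 0.5 of 0. Under the 2-fold rule 43 genes rose, 0.387% of those kept, and 68 fell, 0.612%. Many of the increases started from a low level or shared exons: 32 of the 43 had a control level under 2 FPKM, and 25 overlapped the exons of another gene in the table. With overlapping genes summed, 20 of the 43 kept 2-fold. Their counting interval to control excluded 1 in 41 of the 43. Of the 68 decreases 50 were protein-coding and 25 shared exons. The count ratio interval, which covers counting error in these libraries and not variation between cultures, lay wholly above 1 for 2700 genes (24.3%) and wholly below 1 for 3619 (32.6%). It lay wholly past 2-fold for 32 genes above (0.288%) and 116 below (1.04%), the latter with a median exon length of 9496 bases. Other settings moved the split: TMM-scaled CPM, which changes the unit as well as the scaling, gave 58 higher and 155 lower, and median-of-ratios scaling gave 57 higher and 46 lower, with the median of all genes at 0.06 under both in place of -0.03. With overlapping genes summed, 22 were higher and 50 lower.

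**Figure D1:**
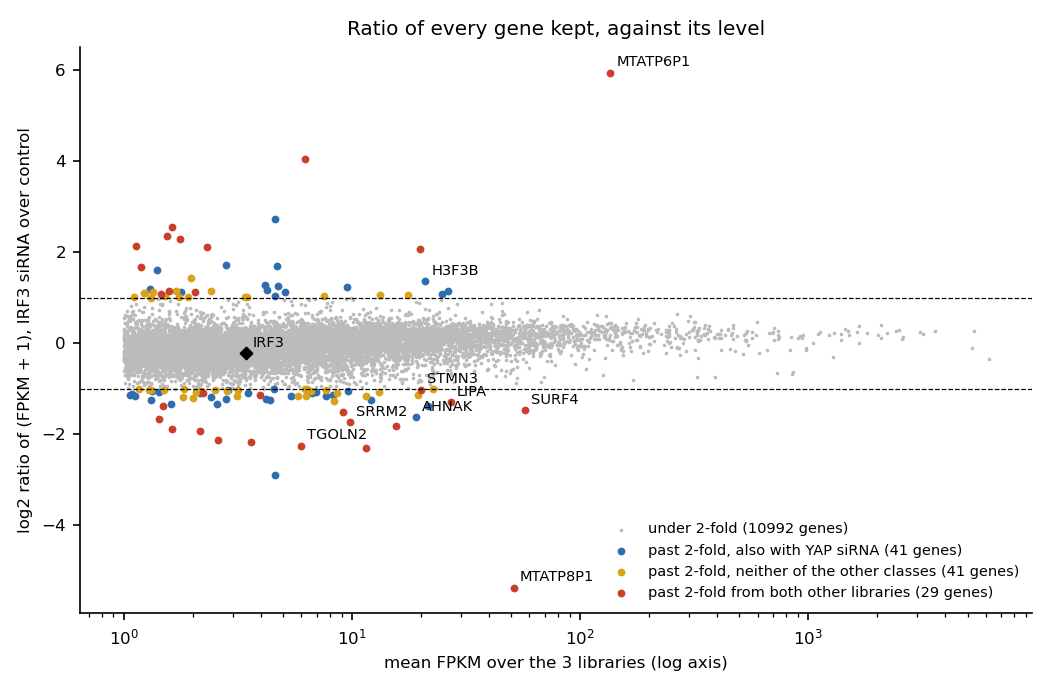
Log2 ratio of FPKM plus 1 (IRF3 siRNA over control) against mean FPKM over the 3 libraries on a log axis, 1 point per gene kept, with dashed lines at 2-fold. Most of the 11103 genes lie between the lines, IRF3 itself (black diamond) is at -0.22, and the genes past 2-fold from both other libraries are in red.

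Setting both other libraries beside these calls gave 3 classes. A gene was called apart when the IRF3 siRNA library was at least 2-fold from control and from YAP siRNA in the same direction, which held for 17 decreases (0.153% of genes kept) and 12 increases (0.108%). Both knockdowns were at least 2-fold from the shared control in 26 of the decreases and 15 of the increases. The other 25 decreases and 16 increases lay between. Among the 17 decreases called apart, AC055866.1 (1, 0 and 1 counts) and AL157871.2 (7, 1 and 5 counts) rested on very few reads. Their count ratio intervals to control, 0 to 36.4 and 0.00296 to 1.04, include 1.

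Of the decreases apart from both libraries, 4 are given first. TGOLN2 (ENSG00000152291, chromosome 2, 85318020 to 85328425, minus strand), a protein that cycles between the trans-Golgi network and the cell surface, stood at 9.80, 1.27 and 6.80 FPKM from 2770, 383 and 1983 counts. It was the lowest gene of this class without overlapping exons, and fell by 2.25 on the log2 scale. Its count ratio was 0.129 (0.116 to 0.144) to control and 0.186 (0.166 to 0.208) to YAP siRNA. SURF4 (chromosome 9, 133361449 to 133376166, minus strand), a cargo receptor that carries proteins out of the endoplasmic reticulum, stood at 73.3, 25.8 and 73.2 FPKM from 7912, 2981 and 8143 counts. The control and YAP siRNA libraries were level, and SURF4 fell by 1.47 against each, with a count ratio of 0.352 (0.337 to 0.367) to control. LIPA (chromosome 10, 89213569 to 89414557, minus strand), the lysosomal acid lipase that frees cholesterol and fatty acids, stood at 33.5, 13.0 and 34.8 FPKM from 3342, 1393 and 3579 counts. It fell by 1.30 against control and by 1.35 against YAP siRNA, and with IFIT2, whose exons it overlaps, the sum fell by 1.28. RAB11FIP4 (chromosome 17, 31391624 to 31538217, plus strand), an effector of RAB11 on recycling endosomes, stood at 2.94, 0.834 and 2.90 FPKM from 707, 215 and 720 counts, and fell by 1.10, or by 0.91, short of 2-fold, with a smooth trend over level, exon length and GC removed.

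SURF4 belongs to the surfeit cluster, in which genes stand within a few kilobases of each other. Its neighbours did not share its pattern. SURF6 had 6.03, 6.43 and 6.74 FPKM, RPL7A 390, 424 and 434, SURF1 19.2, 26.0 and 27.0, and SURF2 9.67, 13.3 and 11.4, with log2 ratios to control from 0.08 to 0.42. MED22, a Mediator subunit next to SURF6, stood at 3.40, 0.732 and 0.697 FPKM and fell by 1.34, but was as low with YAP siRNA.

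The other decreases apart from both libraries were of mixed function. Of all 17, 9 shared exons with another gene, and 10 kept 2-fold against control with overlapping genes summed. Entries with clone-based names were among those that did not: CTD-2207O23.3 went from -2.30 to -0.17 and RP11-903H12.5 from -1.88 to -0.15. C9orf69 (chromosome 9, 136114581 to 136118863, minus strand), now TMEM250, stood at 12.3, 3.68 and 11.4 FPKM and fell by 1.51, with a count ratio of 0.299 (0.264 to 0.337). C11orf96 (chromosome 11, 43925342 to 43944338, plus strand) stood at 3.59, 0.196 and 2.71 FPKM from 222, 13 and 173 counts, and fell by 1.94. STMN3 (chromosome 20, 63639705 to 63657682, minus strand), a stathmin-family protein that destabilizes microtubules, stood at 23.3, 11 and 25.9 FPKM and fell by 1.02. It lay at the threshold, since the interval of its count ratio (0.472, 0.434 to 0.514) includes 2-fold. In C9orf69 and STMN3 the control and YAP siRNA libraries lay close together. SRRM2 (chromosome 16, 2752329 to 2772538, plus strand), a large scaffold protein of nuclear speckles, stood at 14.8, 3.77 and 10.8 FPKM from 6747, 1835 and 5068 counts, and fell by 1.73. With overlapping genes summed, SRRM2 fell by 1.07 against control but had -0.85 against YAP siRNA, and so was no longer apart from both libraries. HMGA1P8, a processed pseudogene of HMGA1 with close copies, had 28, 3 and 18 counts, a count ratio of 0.1 (0.0195 to 0.324). TREX2, a DNA exonuclease gene, stood at 4.07, 1.31 and 6.46 FPKM, while HAUS7, whose exons it shares, stood at 2.70, 5.75 and 1.90. Summed, TREX2 and HAUS7 gave 0.32, so the fall of TREX2 did not hold for the locus.

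Increases apart from both libraries rested on overlapping exons in 9 of 12 genes, and 4 of the 12 kept 2-fold against control after summing. MTATP6P1, a nuclear copy of mitochondrial sequence on chromosome 1, stood at 5.47, 396 and 6.53 FPKM, and MTATP8P1 beside it stood at 80.7, 0.970 and 71.9 FPKM. Summed, their cluster gave 3.61. Both are near-identical to mitochondrial genes, and the treatment of multiply mapped reads was not given in the sources used here, so both are uncertain. BLOC1S5-TXNDC5, a readthrough transcript, had 0, 220 and 0 counts, at least 68.5-fold higher than the floor of 3 counts in the control library, but its cluster summed to -0.06. ENO1P1, a pseudogene within EDARADD, rose by 1.14 and gave -0.58 when summed. Among increases with a symbol, P3H2-AS1, an antisense transcript at 1.18, 3.76 and 1.24 FPKM from 12, 41 and 13 counts, shared no exon with another counted gene (count ratio 3.19, interval 1.64 to 6.67). An entry for RABL6, a RAB-like GTPase, rose by 2.07, from 10 to 45.4 FPKM beside 4.34 with YAP siRNA. That entry (ENSG00000282955, 136808197 to 136840522) has no match in GENCODE release 29, so its exon overlaps were not determined. Its span lies within that of the other RABL6 entry (136807943 to 136957733), which moved the other way, at 8.68, 4.08 and 11.2 FPKM. Counts were 307, 1489 and 137 for the inner entry and 2179, 1096 and 2888 for the other. Reads of the shared span cannot be assigned to 1 entry, so a rise of the locus is not shown.

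**Figure D2:**
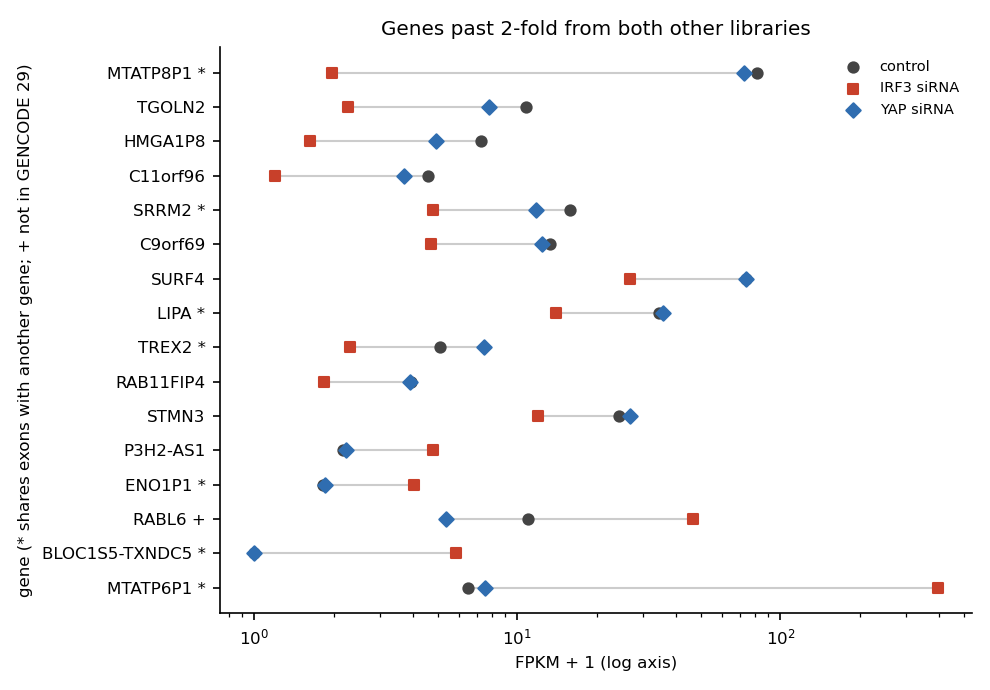
FPKM plus 1 on a log axis in the control (circle), IRF3 siRNA (square) and YAP siRNA (diamond) libraries for the 16 genes with a symbol that were past 2-fold from both other libraries. In SURF4, LIPA, RAB11FIP4, STMN3 and C9orf69 the circle and diamond nearly coincide and the square stands to the left.

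Because a 2-fold rule on FPKM passes over smaller differences that are well counted, a second rule was added after the data were seen. It asked that the count ratio intervals to control and to YAP siRNA both lie wholly past 1.5-fold in the same direction. It held for 40 genes lower with IRF3 siRNA (0.360% of genes kept) and 22 higher (0.198%), of which 17 and 14 shared exons with another counted gene. These include 15 of the 17 decreases and all 12 increases described above.

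Lower genes that this rule added included CORO1C, TAGLN2 and KANK2. CORO1C, a coronin that binds actin filaments, stood at 11.6, 4.27 and 9.22 FPKM and fell by 1.26 against control (count ratio 0.368, interval 0.340 to 0.399). Its level with YAP siRNA was 0.95 above it on the log2 scale, short of 2-fold. TAGLN2, a transgelin that also binds actin, stood at 143, 88.1 and 149 FPKM from 6148, 4070 and 6630 counts, a count ratio of 0.618 (0.594 to 0.643). KANK2, an adaptor of focal adhesions, stood at 17.5, 8.71 and 15.1 FPKM (0.498, 0.470 to 0.527). In TAGLN2 the control and YAP siRNA libraries differed by 0.06 on the log2 scale, whereas in CORO1C and KANK2 the YAP siRNA library stood below control by 0.30 and 0.20.

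Others were IGF2, CCND3 and 3 further genes. IGF2, a fetal growth factor, stood at 4.56, 1.46 and 3.36 FPKM and fell by 1.17 (count ratio 0.321, interval 0.274 to 0.375). CCND3, a G1 cyclin, stood at 9.21, 5.53 and 10 FPKM (0.601, 0.559 to 0.645). The related cyclin genes CCND1 (25.7, 14.8 and 15.3 FPKM) and CCND2 (28.9, 17.3 and 16.9) were low in both knockdowns. CCND3 was thus the D-type cyclin gene with control and YAP siRNA at a like level. PLK2, a polo-like kinase, stood at 21.2, 11 and 17.7 FPKM (0.522, 0.491 to 0.553), and NUAK1, a kinase related to AMPK, at 1.43, 0.641 and 1.30 FPKM (0.449, 0.337 to 0.594). NDRG1, a stress-induced gene, stood at 17.4, 10.4 and 17.6 FPKM (0.600, 0.571 to 0.631).

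The most abundant of them was RPLP1. It encodes an acidic protein of the ribosomal stalk and stood at 419, 251 and 503 FPKM from 25273, 16192 and 31313 counts, a count ratio of 0.598 (0.586 to 0.610). Of 78 cytosolic ribosomal protein genes kept, 12 had a ratio below 0, none passed 2-fold and the median was 0.19. RPLP1, at -0.74, was the lowest of these 12, and 9 genes of the list had a count ratio interval wholly below 1. COX4I1, a subunit of cytochrome c oxidase, stood at 24.3, 15.1 and 30 FPKM (log2 ratio -0.65, or -0.48 with overlapping genes summed). Of 64 nuclear respiratory chain genes 4 had a ratio below 0, and the median was 0.25. LYRM4, which serves iron-sulfur cluster assembly, stood at 4.77, 2.69 and 5.23 FPKM (count ratio 0.564, interval 0.508 to 0.625). CNIH1, a cornichon protein that exports cargo from the endoplasmic reticulum, stood at 16.1, 9.06 and 15.1 FPKM (0.562, 0.521 to 0.606). ZFAND5, a zinc-finger protein that binds ubiquitin, stood at 15.5, 6.47 and 12.6 FPKM and fell by 1.15. METTL7A, a methyltransferase-like protein of lipid droplets, stood at 3.40, 1.21 and 3 FPKM (0.356, 0.303 to 0.418). CTAG1A, at 186, 106 and 220 FPKM, has a near-identical copy and is uncertain.

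Higher genes of this rule without overlapping exons were few. RXRA, the retinoid X receptor, stood at 5.73, 11.5 and 6.12 FPKM from 928, 1994 and 1023 counts, a count ratio of 2.01 (1.85 to 2.17) to control and 1.88 (1.74 to 2.03) to YAP siRNA. THY1, a surface glycoprotein used as a fibroblast marker, stood at 7.03, 14.5 and 8.88 FPKM (2.06, 1.92 to 2.22). The summed fibroblast list did not follow THY1, at 968 FPKM with IRF3 siRNA against 1066 in the control. CMTM4, a membrane protein that stabilizes PD-L1, stood at 0.973, 2.36 and 0.633 FPKM (2.43, 2.02 to 2.92), EMP1, an epithelial membrane protein, at 1.17, 2.40 and 1.17 (2.04, 1.73 to 2.43), and RAP1GAP2, a GTPase-activating protein for RAP1, at 1.69, 3.05 and 1.51 (1.80, 1.58 to 2.06). None of these 5 passed 2-fold on the FPKM plus 1 scale.

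**Figure D3:**
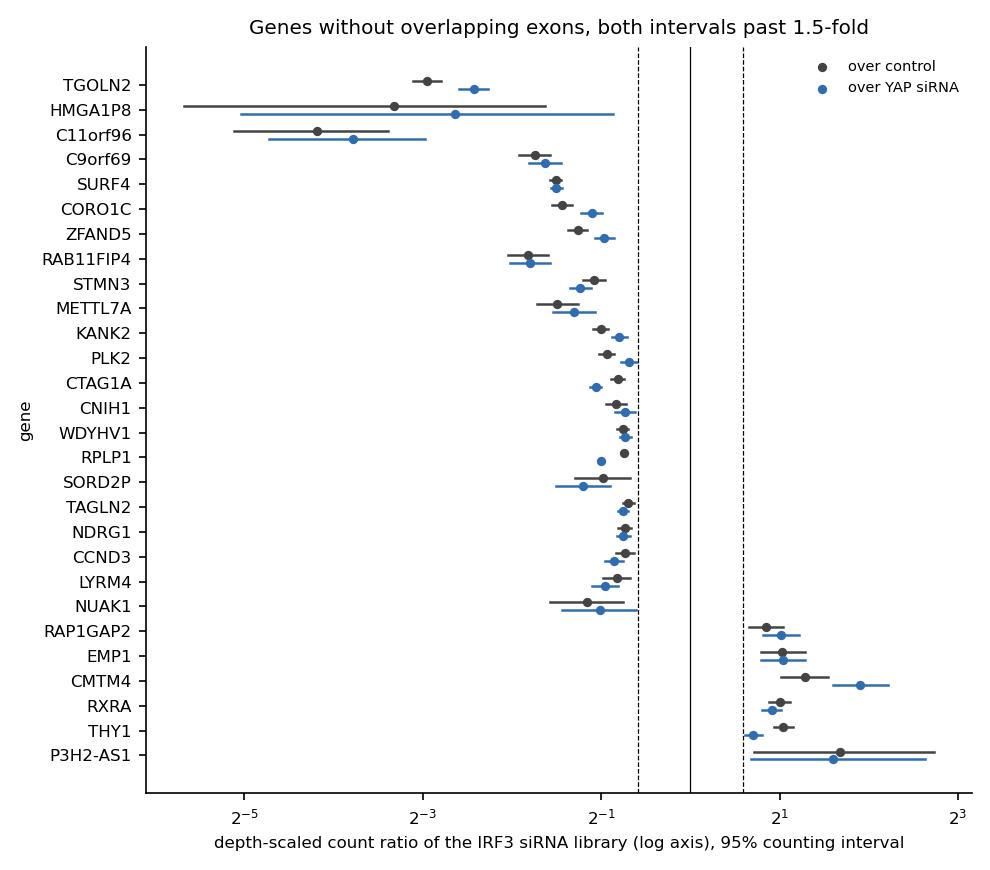
Depth-scaled count ratios of the IRF3 siRNA library to control (black) and to YAP siRNA (blue) on a log axis with 95% counting intervals, for named genes without overlapping exons whose intervals both lie past 1.5-fold (dashed lines). TGOLN2, HMGA1P8 and C11orf96 lie far to the left, abundant genes such as RPLP1 and SURF4 have the narrowest intervals, and 6 genes lie to the right.

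Decreases found in both knockdowns were of another kind, mostly genes of long exon length (the union of all exons of a gene). Their median exon length was 7887 bases and their median GC content 46.3%. Over all genes kept these were 4133 bases and 50.8%, and for the decreases apart from both libraries 2874 bases and 55.5%. Short entries were also among them. The largest decrease of the class was TUBBP1, a pseudogene of 1646 bases, with 498, 33 and 45 counts (-2.90). AHNAK, a giant scaffold protein, stood at 35.1, 10.7 and 11.5 FPKM and PRKDC, the DNA-dependent protein kinase, at 20.9, 8.20 and 7.36. PTPN14, a phosphatase that binds YAP, stood at 4.97, 1.56 and 1.87 FPKM, MAP1B, a microtubule-associated protein, at 4.42, 1.39 and 1.40, and FAT1, an atypical cadherin, at 9.23, 3.60 and 3.45. In each of these 5 genes the control stood alone. The chromatin genes BAZ1B (13.2, 5.45 and 6.07 FPKM) and CBX5 (10.8, 4.49 and 4.83) fell by 1.14 and 1.10, and CNOT1, the scaffold of the CCR4-NOT deadenylase, fell by 1.08. After removal of a smooth trend over expression level, exon length and GC, the ratios to control of PRKDC, BAZ1B, MAP1B, CBX5, CNOT1, FAT1 and PTPN14 were -0.96, -0.98, -0.83, -0.77, -0.81, -0.82 and -0.83, short of 2-fold, while AHNAK had -1.38. CBL (-1.25) and SON (-1.01) gave -0.49 and -0.34 with overlapping genes summed.

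Increases in both knockdowns were all protein-coding (15 genes), as were 84.8% of all genes kept. Of these 15, 9 shared exons with another gene, and 7 kept 2-fold against control with overlapping genes summed. The control level was under 2 FPKM in 9 of the 15. C1GALT1C1, the chaperone of the O-glycan core 1 synthase, stood at 1.18, 6.08 and 6.83 FPKM from 51, 282 and 305 counts (log2 ratio 1.70, count ratio 5.16, interval 3.82 to 7.10). PJA1, a ubiquitin ligase, stood at 1.70, 5.56 and 5.21 FPKM (1.28). NUDCD3, a cochaperone of dynein, stood at 4.65, 12.4 and 11.6 FPKM (1.24), TMEM164, a membrane protein, at 2.46, 6.50 and 6.27 (1.12), and CYB5R3, a cytochrome b5 reductase, at 13.8, 30.2 and 30.5 (1.08, or 0.94 with the trend removed). The knockdown libraries differed from each other by at most 0.15 on the log2 scale in these 5 genes. The histone gene H3F3B stood at 9.71, 26.4 and 26.7 FPKM (1.36, or 1.10 with overlapping genes summed). PPAN-P2RY11, a readthrough transcript, had 0, 322 and 453 counts and gave 0.34 when summed. Likewise C15orf38-AP3S2 went from 1.03 to -0.57 and RNASEK-C17orf49 from 1.16 to 0.21 with overlapping genes summed.

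Genes between these classes were at least 2-fold from control with IRF3 siRNA only, yet less than 2-fold from the YAP siRNA library. GLI3, a transcription factor of Hedgehog signalling, stood at 9.82, 3.85 and 5.26 FPKM and fell by 1.16. LAMA2, a laminin chain, stood at 10.2, 4.45 and 5.17 FPKM (-1.04), CKAP5, a microtubule polymerase, at 20.5, 9.21 and 9.77 (-1.08) and SOX4, a transcription factor, at 33.8, 16.4 and 18.0, at the threshold of 2-fold. YAP siRNA lay nearer to IRF3 siRNA than to control in all 4. Against that, TRIM16L, a TRIM-family gene, rose by 1.04, from 4.66 to 10.6 FPKM, and stood midway at 7.29 with YAP siRNA. NXN, nucleoredoxin, stood at 10, 22.0 and 20.9 FPKM (1.06) and C21orf33 at 7.68, 17.0 and 15.3 (1.06).

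Gene lists were then described by their counts of calls and their medians. The trans-Golgi and endosomal sorting list (33 of 36 kept) had 0 higher, 2 lower and a median of -0.19. Its calls were TGOLN2 and CLTC, the clathrin heavy chain, at 11.8, 5.28 and 6.05 FPKM (-1.03, or -0.73 with overlapping genes summed). SORT1, a sorting receptor, had -0.66 and AP1G1, an adaptor subunit, -0.70, both as low with YAP siRNA. The early secretory list (52 of 53 kept) had 1 lower gene, SURF4, and a median of -0.14, with the cargo receptor LMAN1 at 15.3, 8.21 and 9 FPKM (-0.83) and the coatomer subunit ARCN1 at 27.7, 15.4 and 16.7 (-0.81). Among lysosomal genes (38 of 41 kept) LIPA was the single call and the median was -0.02. PPT1, a lysosomal thioesterase, stood higher at 19.9, 31.0 and 34.3 FPKM (0.62). TGOLN2, SURF4 and LIPA thus stood apart from the YAP siRNA library, while the other members named from these 3 lists were within 0.17 of it on the log2 scale.

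Several lists had medians below that of all genes kept. Giant scaffold, plakin and cadherin genes (17 of 30 kept) had 2 lower, 16 of 17 ratios below 0 and a median of -0.63, which was -0.31 with the trend removed and -0.67 with YAP siRNA. Hippo pathway components (24 of 31 kept) had 1 lower gene, PTPN14, and a median of -0.32, extracellular matrix genes (33 of 43 kept) no call and -0.24, and CCR4-NOT and mRNA decay genes (23 of 34 kept) 1 lower gene, CNOT1, and -0.22. Genes of the mitochondrial genome (8 of 13 kept) had no call and a median of -0.32, with -0.50 under YAP siRNA, and took 1.73%, 1.35% and 1.26% of counts. MT-ATP8 and MT-ND4 had no count in any library. With the treatment of multiply mapped reads not given, these values describe counted reads only. Among the mitochondrial genes kept MT-ND5, a complex I subunit, stood at 1157, 721 and 681 FPKM (-0.68). Within the matrix list COL12A1, a fibril-associated collagen, stood at 3.78, 1.67 and 1.2 FPKM, and LAMC1, a laminin chain, at 56.4, 33.8 and 38.6. Nuclear speckle proteins (32 of 35 kept) had SRRM2 and SON lower and a median of -0.17. With a 5 FPKM filter the medians of the trans-Golgi and speckle lists were 0.06 and 0.08, above 0.

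Other lists had medians above 0. Proteasome genes (37 of 37 kept) had no call, a median of 0.20 and 7 ratios below 0. DNA replication genes (35 of 36 kept) had 0.17, and MYC and ribosome biogenesis genes (34 of 37 kept) 0.15, beside 0.09 with YAP siRNA. Below 0, mitotic genes (33 of 35 kept) had -0.19. ANLN, an actin-binding protein of cytokinesis, stood at 6.55, 2.78 and 3.02 FPKM, just short of 2-fold. TOP2A, a topoisomerase, stood at 26.6, 12.9 and 13.5 FPKM (-0.99). Lipid synthesis genes (29 of 30 kept) had no call and a median of -0.09, and SCD, a fatty acid desaturase, stood at 1090, 700 and 780 FPKM (-0.64). Among glycolysis and hypoxia genes (33 of 36 kept, median -0.03) the factor HIF1A stood at 3.61, 1.46 and 1.43 FPKM (-0.91) and the collagen hydroxylase P4HA1 at 69.2, 37.4 and 49.9 (-0.87).

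The remaining lists of stress and signalling genes had 0 or 1 call each, beside 0.387% of all genes kept higher and 0.612% lower. YAP/TEAD target genes (18 of 25 kept) had a median of -0.14 with PTPN14 as the single call, beside -0.19 with YAP siRNA itself. Actin and SRF target genes (40 of 44 kept) had a median of 0.01 and CORO1C as the single call, while ACTB, the cytoplasmic actin, stood at 205, 317 and 278 FPKM (0.63) and the myosin gene MYH10 at 14.2, 8.04 and 8.09 (-0.75). Growth factor, Notch, Wnt and TGF-beta genes (37 of 45 kept) had IGF2 lower and a median of -0.26, and the Notch effector HES1 stood at 7.37, 3.91 and 4.97 FPKM (-0.77). In p53 target genes (19 of 26 kept) no gene was called and the median was -0.06, with TP53INP1 at 2.74, 0.932 and 0.98 FPKM (-0.95). NF-kB targets and inhibitors (12 of 25 kept, median 0.10), apoptosis regulators (27 of 35 kept, 0.04), integrated stress response genes (24 of 24 kept, -0.06) and ER chaperones (26 of 28 kept, -0.08) had no call either. Of immediate early genes (22 of 30 kept, median -0.11) JUN stood at 20.4, 13.7 and 18.7 FPKM (-0.54). Noncoding genes (19 of 25 kept, median 0.06) included SNHG3, a snoRNA host, at 21.3, 11.9 and 18.4 FPKM (-0.79) and MALAT1 at 2.03, 0.606 and 1.05 (-0.92).

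**Figure D4:**
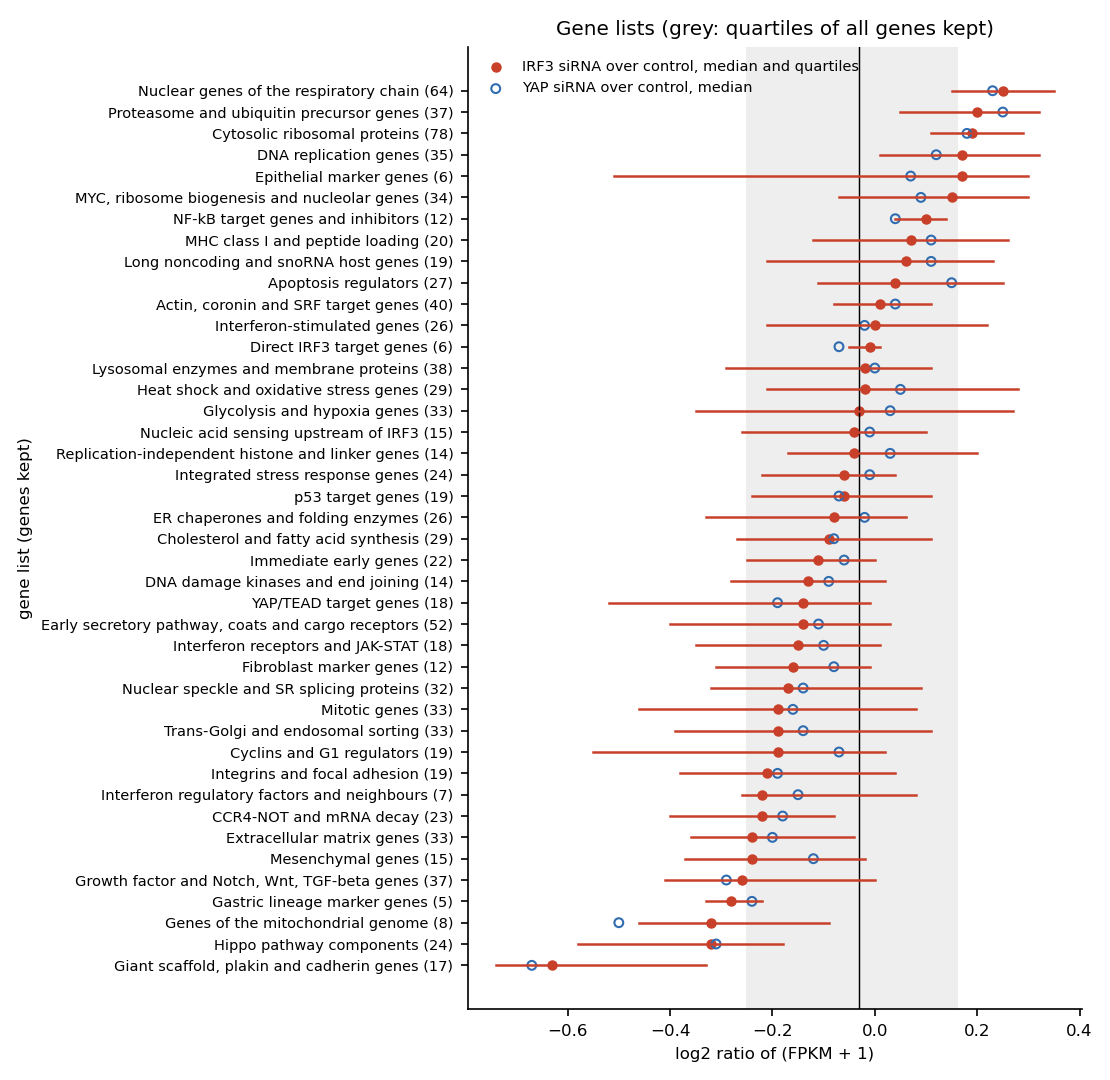
Median log2 ratio of FPKM plus 1 for each gene list with at least 5 genes kept: filled points and bars are IRF3 siRNA over control with quartiles, open points YAP siRNA over control, and the grey band spans the quartiles of all genes kept (-0.25 to 0.16). Giant scaffold genes lie lowest at -0.63 and respiratory chain genes highest at 0.25; both comparisons use the same control library.

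The ratio to control followed gene properties. In the longest decile of genes by exon length the median was -0.24, with 1 gene higher and 18 lower, and in the shortest decile it was 0.09, with 19 higher and 12 lower. By GC content the median went from -0.19 in the lowest decile to 0.12 in the highest, and by level from -0.13 to 0.15. A smooth trend in these 3 properties held 22.5% of the variance of the ratio to control but 2.95% of that of IRF3 siRNA over YAP siRNA. The part of these properties, or of RNA quality, in the changes of long genes was not tested. With the trend removed, 35 genes were higher and 42 lower than control, and 15 of the 17 decreases apart from both libraries remained past 2-fold against control. Of the other pair RAB11FIP4 fell short, and AC055866.1 lacked an exon length and was not fitted. With overlapping genes summed instead, 10 of the 17 remained past 2-fold against control.

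**Figure D5:**
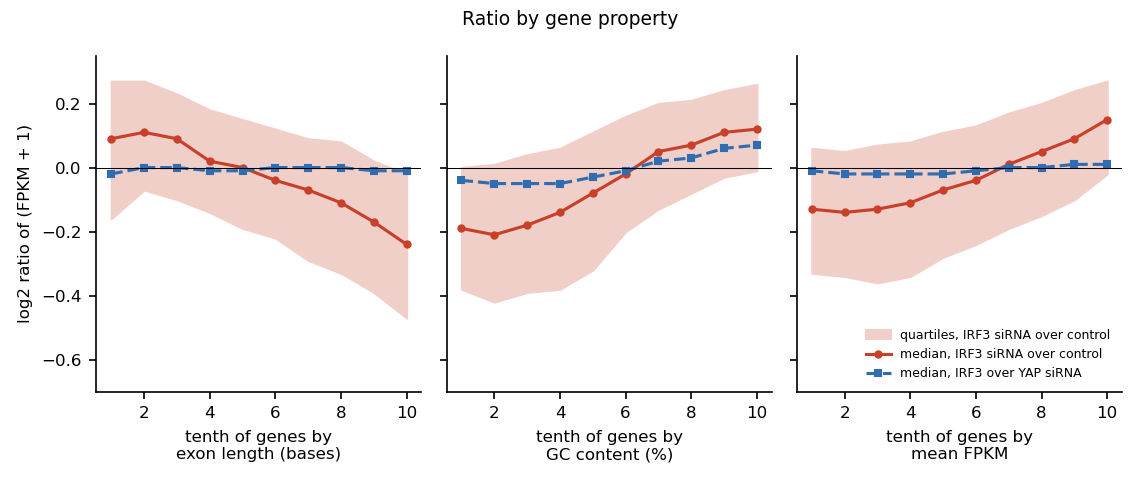
Median log2 ratio in deciles of genes by exon length, GC content and mean FPKM: IRF3 siRNA over control (red, shading between quartiles) and IRF3 siRNA over YAP siRNA (blue, dashed). The red line slopes in each panel, from 0.09 to -0.24 by length, while the blue line stays between -0.05 and 0.07.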

How the data were processed

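Total RNA from HGC-27 cells was sequenced in 3 libraries, 1 per siRNA. The deposited table gives FPKM and raw counts per gene and library, per the file headers. Alignment used TopHat2 2.0.9 on hg38, per the submitters' processing notes. The gene counter, annotation release and strand setting were not given in the sources used here. Deposited FPKM matched the authors' deposited counts scaled by gene length and column total in 100% of 45223 values, within 1%. Columns of per-sample values left unmapped numbered 0.

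Genes with a mean of at least 1 FPKM were kept. Log2 ratios used FPKM plus a pseudocount of 1, which understates changes of low genes, and a gene was called at 2-fold. Count ratios were scaled by assigned counts and carry 95% Clopper-Pearson intervals. With 1 library a side there is no test. GENCODE release 29, also on hg38, supplied gene class, length, GC and overlaps of exons (identical coordinates for 93.8% of genes kept, matched in 11072). Promoter windows came from RefSeq (GRCh38.p14), matched by deposited symbol for 7397 genes and by the current symbol of the gene ID for 592.

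The 44 gene lists and all rules were chosen with earlier results of these data known. Named were IRF3, BCL2L12 and YAP1, the 15 largest ratios each way at 5 FPKM or more, the 12 largest each way apart from both libraries (ranked by the smaller ratio), up to 4 members per list, and the 5 highest control levels called each way, without small RNAs and clone-based symbols. Genes named outside this rule (such as markers, neighbours of SURF4, members under the filter and genes of the 1.5-fold rule) were chosen after their values were seen. The 1.5-fold rule was added after seeing the data. Other settings were a pseudocount of 0.1, a 5 FPKM filter, no filter, centring, a 3-fold threshold, protein-coding genes only, TMM-scaled CPM (edgeR), median-of-ratios scaling, summing of genes with overlapping exons, and removal of a spline trend (natural splines of level, of length and of GC, with 4 degrees of freedom apiece, in 11066 genes). The call rules were run on simulated Poisson counts with known folds. That simulation held no variation between cultures, no reads shared between genes and no trend with length or GC, so it covers counting error only. Software was R 4.3.3 with edgeR 4.0.16, and Python 3.11.15 with matplotlib 3.10.9, patsy 1.0.2, pandas 2.3.3, scipy 1.17.1 and numpy 2.4.6.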

Additional observations from a re-analysis of the deposited data

Results flagged for a closer look

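An entry for RABL6 (ENSG00000282955) was past 2-fold in opposite directions in the knockdowns, at a log2 ratio to control of 2.07 under IRF3 siRNA and -1.05 under YAP siRNA. It had 307 counts in the control, 1489 under IRF3 siRNA and 137 under YAP siRNA. The other RABL6 entry, whose span encloses it, had -0.93 and 0.33. Reads of the shared span cannot be assigned to 1 entry, so the values do not show a change of the locus. The difference was not tested, with 1 library each.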

How the results depend on the processing

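The main counts were 43 genes higher, 68 lower, 12 higher apart from both libraries and 17 lower apart. In the same order they were 96, 284, 23 and 37 with a pseudocount of 0.1, 11, 30, 3 and 9 with a 5 FPKM filter, 64, 93, 19 and 18 without a filter, 13, 12, 9 and 8 at 3-fold, 26, 50, 4 and 12 for protein-coding genes, 58, 155, 14 and 16 with TMM-scaled CPM, 22, 50, 5 and 9 with overlapping genes summed, and 35, 42, 12 and 19 with the trend removed. Centring and median-of-ratios scaling kept all 4 within 1.5 times. The added rule on count ratio intervals past 1.5-fold gave 22 higher and 40 lower apart. The IRF3 log2 ratio was -0.02 when summed with BCL2L12, and it has no value under the 5 FPKM filter. Summing reversed BLOC1S5-TXNDC5 (-0.06), ENO1P1 (-0.58), MTATP8P1 (3.61) and TREX2 (0.32). The 5 FPKM filter turned the medians of the interferon receptor and JAK-STAT (0.01), trans-Golgi (0.06), nuclear speckle (0.08) and integrin (0.07) lists, and median-of-ratios scaling brought the immediate early list from -0.11 to 0.00. Apart from what each construction implies (fewer genes, joined counts), the cause was not tested. Depth limits the low genes: under the filter most interferon-stimulated genes rest on fewer than 100 counts, and variation between cultures was not measured.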
